A study of Mus musculus with 6 samples.

Results

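A set of 55 type I interferon response genes was followed in blood neutrophils of mice, isolated by flow cytometric sorting. Members were matched by gene symbol, and all 55 were found among the 47561 gene and transcript features listed for each library. The study compared 3 samples from control mice with 3 samples from mice that had received AVP over 30 days. What AVP stands for is not spelled out in the labels, and they give no strain, sex or age. Control samples are labelled as the negative control, and what the control mice received is not stated. Whether each sample is a separate animal is not stated either, and the p-values therefore measure only the spread among these samples, which may be technical. Levels are in FPKM, a level scaled to transcript length and to library depth, which is a unit inferred from the deposited values.

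Type I interferons are cytokines that cells release when sensors detect viral or misplaced nucleic acids. They bind the IFNAR1 and IFNAR2 receptor chains, whose kinases JAK1 and TYK2 pass the signal on by phosphorylation. This assembles the complex ISGF3, which includes STAT2 and IRF9 and binds interferon-stimulated response elements in the promoters of response genes and switches on antiviral effectors. Blood neutrophils carry this receptor, and the response genes are often read as a sign of interferon exposure in myeloid cells. Part of the set, such as the guanylate-binding proteins, the immunity-related GTPases and Irf1, also responds to interferon gamma.

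The element that ISGF3 binds has a core of GAAA, any 2 bases and GAAA again, and this core was searched on both strands of RefSeq promoters of GRCm38.p6, the assembly behind the mm10 build named for the data. Each promoter runs from 250 bases before to 50 bases after a transcription start, and overlapping matches were counted. Of the 55 members, 44 had a promoter in the table, and 27 of these (61.4%) held a match. Among all 27025 genes with a promoter, 1079 (3.99%) held one, and among all promoters the share was 3.44%. The core stood more than once in a promoter of 10 members, the Isg15 promoter having 3 overlapping matches. The 130 bases before the start are printed for 4 members with the element and for 2 without it whose levels were lower in all 3 AVP libraries. They are written 5′ to 3′ on the gene's strand, with the GAAA blocks of each match, or TTTC where the match is on the other strand, in capitals.
Isg15 (chr4:156200819-156200948, minus strand): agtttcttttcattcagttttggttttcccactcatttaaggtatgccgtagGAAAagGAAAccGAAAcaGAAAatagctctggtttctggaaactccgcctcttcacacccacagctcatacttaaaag
Ifit1 (chr19:34640759-34640888, plus strand): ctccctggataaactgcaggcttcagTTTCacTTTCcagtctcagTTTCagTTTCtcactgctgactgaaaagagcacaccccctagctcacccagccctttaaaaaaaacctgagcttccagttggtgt
Irgm1 (chr11:48871421-48871550, minus strand): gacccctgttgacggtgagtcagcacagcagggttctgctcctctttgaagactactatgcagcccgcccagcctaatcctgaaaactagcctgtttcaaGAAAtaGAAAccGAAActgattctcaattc
Igtp (chr11:58199426-58199555, plus strand): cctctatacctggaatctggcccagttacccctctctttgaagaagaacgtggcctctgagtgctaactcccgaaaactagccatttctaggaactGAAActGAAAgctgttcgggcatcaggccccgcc
Slfn1 (chr11:83116690-83116819, plus strand): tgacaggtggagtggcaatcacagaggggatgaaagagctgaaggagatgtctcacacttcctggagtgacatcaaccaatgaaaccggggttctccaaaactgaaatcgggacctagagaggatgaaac
Ifi209 (chr1:173630729-173630858, plus strand): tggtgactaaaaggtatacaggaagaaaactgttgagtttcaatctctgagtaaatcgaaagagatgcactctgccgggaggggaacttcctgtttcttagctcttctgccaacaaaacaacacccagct
In Isg15 the matches began 78, 72 and 66 bases before the start, and in Irgm1 they began 30 and 24 bases before it. In Ifit1 both matches were on the other strand, at 104 and 85 bases before the start. In the near-identical pair Oas1a and Oas1g, the matches began 20 and 14 bases and 18 and 12 bases before the start. In the pair Ifit3 and Ifit3b they began 156 and 122 bases and 188 and 154 bases before it. A match describes these letters only, and binding was not measured.

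**Figure D1:**
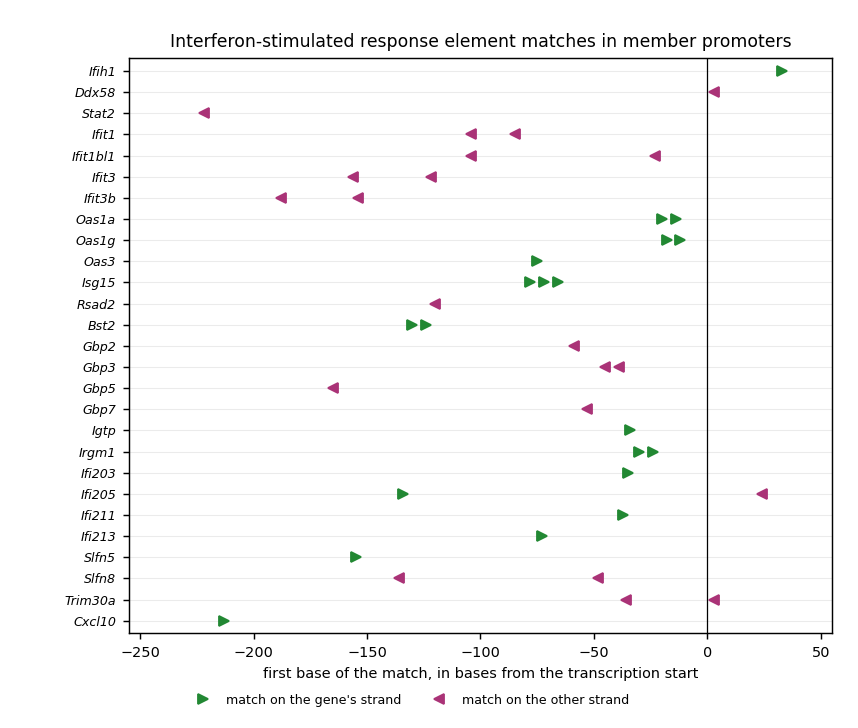
Position of each match to the interferon-stimulated response element core in the promoters of the 27 members that hold one. The horizontal axis gives the first base of the match in bases from the transcription start (vertical line), and the triangles show the strand. Isg15 has 3 matches within 78 bases of the start, and Cxcl10 has 1 at 213 bases before it.

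The estimated depth of the 6 libraries was 14199000 to 16845000 fragments, so that 1 fragment on a transcript of 1 kb is worth 0.0594 to 0.0704 FPKM. The 10 neutrophil markers summed to 165385 to 193840 FPKM and were all detected. S100a8 and S100a9 made up most of that sum, so it says little of the others. Retnlg stood higher in each AVP library (9729 to 11050 FPKM) than in each control library (4925 to 5538 FPKM). Mmp9 stood lower, at 101 to 197 FPKM after AVP and 229 to 374 FPKM in controls. Markers of other blood cells were present too. Monocyte markers summed to 469.7, 814 and 1085 FPKM in the control libraries and 837, 1148 and 247 FPKM in the AVP libraries, and B cell markers to 6038, 7749 and 4899 FPKM and to 1259, 4839 and 3789 FPKM. T cell and NK cell markers stood highest in AVP replicate 3, at 115 and 48.2 FPKM. Trac and Trbc2, at 52.4 and 33.1 FPKM, made up most of that T cell sum. Cd3e, Cd4 and Cd8a were listed at 0 in all 6 libraries. Nkg7, at 44.3 FPKM, made up most of that NK cell sum. Klrb1c and Klrd1 were also highest there, at 1.51 and 1.11 FPKM, while Ncr1 and Gzma were lowest, at 0.274 and 0.972 FPKM. Prf1 was listed at 0 in that library. Basophil markers stood highest in AVP replicate 1, at 315 FPKM. Erythroid markers summed to 102661 to 154851 FPKM in the control libraries and to 242562, 119310 and 135395 FPKM in the AVP libraries. Of 6 plasmacytoid dendritic cell markers, Siglech, Klk1, Cox6a2 and Pacsin1 were listed at 0 in all 6 libraries. In bulk samples such as these, fewer cells of a type and less RNA per cell cannot be told apart.

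Most response genes were detected in the sorted cells of both groups, over a wide range of levels. In both groups together, 5 members had a mean of at least 100 FPKM, 31 lay between 10 and 100 FPKM and 19 under 10 FPKM, and 43 were above 0 in all 6 libraries. Ifi27l2a, a small interferon-induced membrane protein gene, was the most abundant, with 6168, 4933 and 6160.3 FPKM in the control libraries and 4767, 4816 and 5941 FPKM in the AVP libraries. It ranked 14 among the 8523 genes tested by mean level and took 0.574% to 0.817% of the total FPKM of a library. The other members above 100 FPKM were Slfn4, Rtp4, Slfn1 and Oasl2. Without Ifi27l2a, the members summed to 2799.6, 2030.2 and 2928 FPKM in the control libraries and to 2065, 2391 and 2300.1 FPKM in the AVP libraries, and the groups overlapped. A member was tested when it reached 1 FPKM in at least 3 libraries, and 47 of the 55 did. The 8 below that were Ifit1bl1, Ifit2, Mx1, Mx2, Gbp5, Ifi44, Phf11d and Cxcl10, and Gbp5 was listed at 0 in all 6 libraries. The annotated intervals of 7 members overlap another protein-coding gene (Stat2, Ifit1, Ifit1bl1, Ifit3b, Rtp4, Ifi27l2a and Cxcl10), and their levels are less certain where strand was not used in counting.

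**Figure D2:**
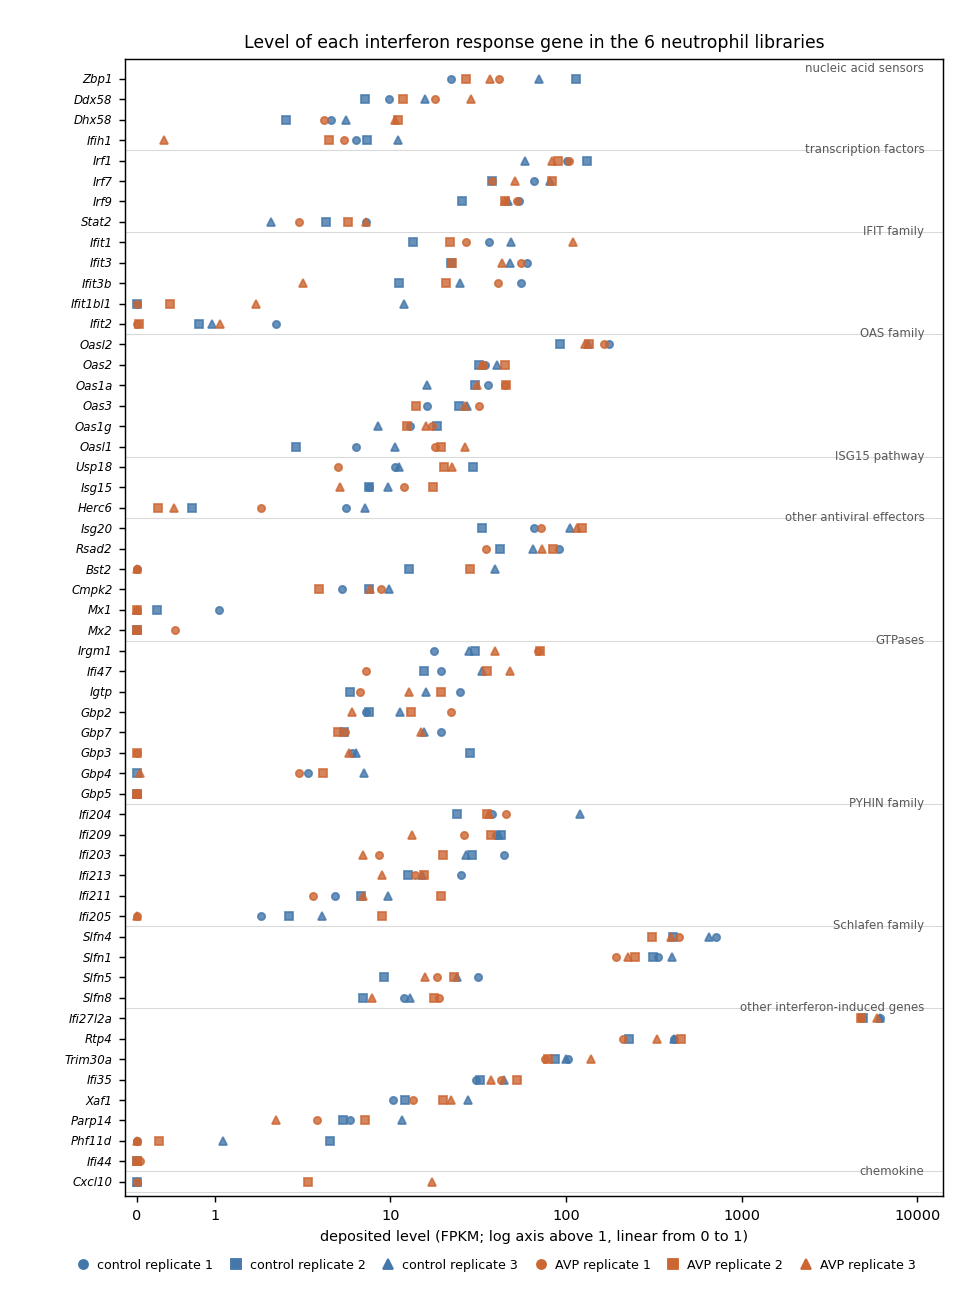
Deposited level (FPKM, horizontal axis, log scale above 1 and linear from 0 to 1) of each of the 55 members in each of the 6 libraries, grouped by role. Blue marks control and orange AVP, and the marker shape gives the replicate. Ifi27l2a stands apart at 4767 to 6168 FPKM, and for most members blue and orange marks are intermixed.

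The question put to these libraries is whether the interferon response of blood neutrophils differed after AVP. The set as a whole showed no common direction. Of the 47 tested members, 25 had a log2 fold change above 0 and 22 below, with a median of 0.02 against -0.04 over all genes tested. Oasl1 and Irgm1 were higher in all 3 AVP libraries than in any control library, and Ifih1, Ifi203, Ifi209 and Slfn1 were lower in all 3. None of these differences passed the test. B cell markers too were lower in each AVP library (1259 to 4839 FPKM) than in each control library (4899 to 7749 FPKM), and their part in the lower levels of members and pathway genes was not tested. By limma, 0 members reached an adjusted p of 0.05, and neither did any of all 8523 genes (0% called), with adjusted p from 0.370 to 0.999 over the members. Fold changes are differences in log2(scaled FPKM + 1), which understates the change of genes at low levels.

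At an unadjusted p of 0.05 by limma, 2 members (4.26%) were higher after AVP, Oasl1 and Irgm1, where 4.72% of all genes were. Lower after AVP at that threshold were 3 members (6.38%), Gbp3, Ifi203 and Slfn1, where 3.75% of all genes were. Groups did not overlap, with AVP higher, in the 2 members named (4.26%) against 7.49% of all genes, and with AVP lower in 4 (8.51%) against 6.49%. These shares lie near those of all genes. In size, 40 of 47 members (85.1%) had a log2 fold change between -1 and 1, against 77.6% of all genes.

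**Figure D3:**
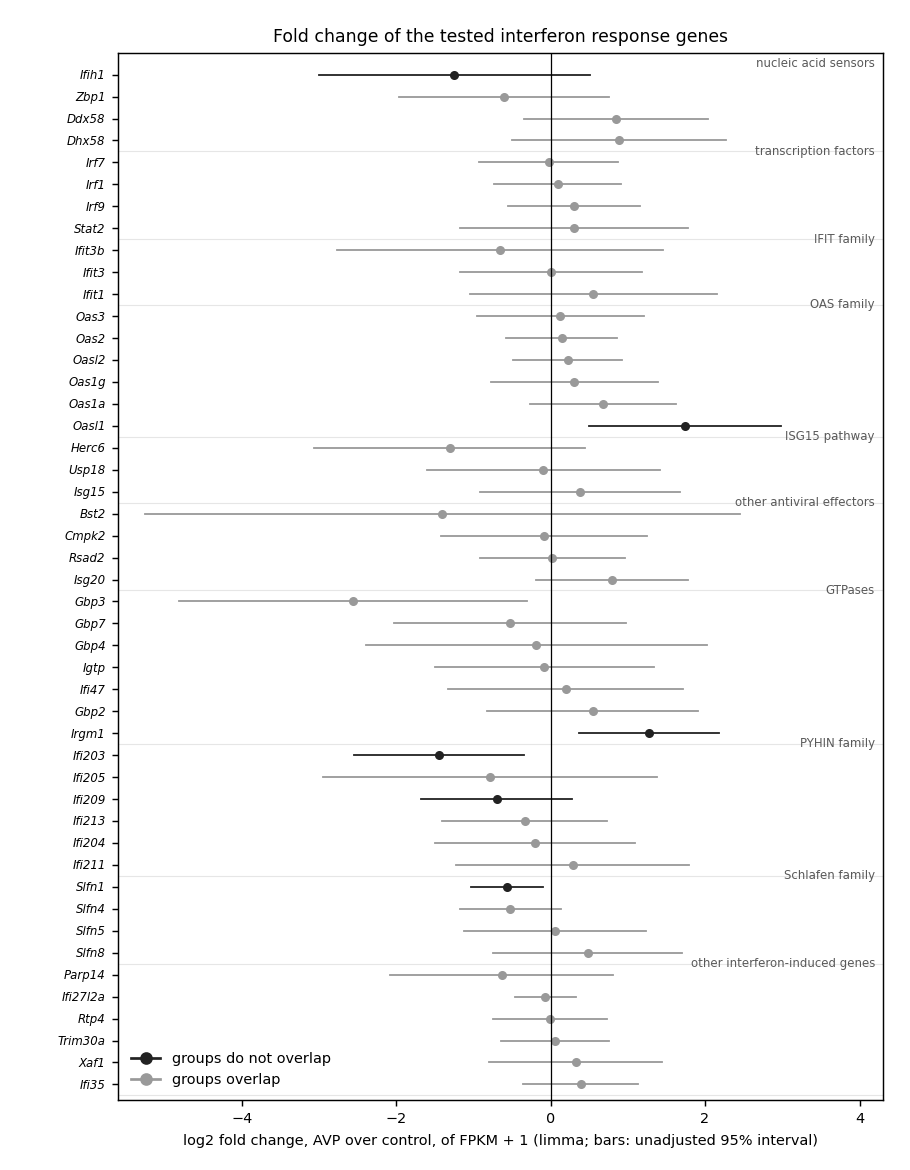
log2 fold change (AVP minus control, horizontal axis) of the 47 tested members, grouped by role, each with its unadjusted 95% interval from limma. Dark points are members whose groups do not overlap, with Oasl1 at 1.75 and Irgm1 at 1.27 on the right and Ifi203 at -1.45 among those on the left.

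Among the nucleic acid sensors, 2 of 4 tested members had a fold change above 0 and 2 below. Ifih1, which encodes the long double-stranded RNA sensor MDA5, was at 6.39, 7.34 and 11 FPKM in the control libraries and 5.47, 4.45 and 0.346 FPKM in the AVP libraries. Every AVP library was below every control library, the lowest being AVP replicate 3, with a log2 fold change of -1.25 (adjusted p = 0.739, SE 0.76) that was -0.52 without that library and -0.65 with a pseudocount of 5. Monocyte markers, also lowest in that library, summed to 469.7, 814 and 1085 FPKM in the control libraries and 837, 1148 and 247 FPKM in the AVP libraries. Their part in the result was not tested. Ddx58, the gene of the RNA sensor RIG-I, had 9.86, 7.17 and 15.7 FPKM in the control libraries and 17.9, 11.9 and 28.7 FPKM in the AVP libraries, with the highest control library below the 17.9 FPKM of AVP replicate 1 and above the 11.9 FPKM of AVP replicate 2. Dhx58, whose product LGP2 tunes both of these sensors, ranged from 2.56 to 5.62 FPKM in controls and from 4.21 to 11.02 FPKM after AVP. Zbp1, a sensor of Z-form nucleic acids that can trigger cell death, was the most abundant of the group, with 22.1, 114 and 70.5 FPKM in the control libraries and 41.7, 26.98 and 37.1 FPKM in the AVP libraries. Its controls spanned the AVP values on both sides, and the log2 fold change of -0.60 (adjusted p = 0.831, SE 0.59) was -0.09 without control replicate 2 and -1.27 without control replicate 1.

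The transcription factors that carry the signal were at moderate levels, and the groups overlapped for each of the 4. Irf7, which amplifies interferon production, was at 65.6, 37.9 and 81.2 FPKM in the control libraries and 37.7, 83.5 and 51.05 FPKM in the AVP libraries. It had a log2 fold change of -0.03 (adjusted p = 0.988, SE 0.39), 95% interval -0.93 to 0.88. Irf9, the DNA-binding partner in ISGF3, was at 54.2, 25.7 and 47.02 FPKM in the control libraries and 52.3, 44.7 and 44.7 FPKM in the AVP libraries, where control replicate 2 was the lowest, with a log2 fold change of 0.30 (adjusted p = 0.868, SE 0.37). Stat2, the partner that brings the transactivation domain to ISGF3, was low, with 7.299, 4.31 and 2.098 FPKM in the control libraries and 3.01, 5.74 and 7.29 FPKM in the AVP libraries, and had a log2 fold change of 0.30 (adjusted p = 0.928, SE 0.64). Irf1, a factor induced most strongly by interferon gamma, was the most abundant, with 101, 133 and 58.1 FPKM in the control libraries and 104, 90.4 and 83.5 FPKM in the AVP libraries. Controls lay on both sides of the AVP values, and the log2 fold change of 0.09 (adjusted p = 0.956, SE 0.36) ranged from -0.24 to 0.36 when single libraries were left out.

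In the OAS family, whose enzymes make a short adenylate that activates RNase L, all 6 tested members had a fold change above 0, with a median of 0.26. For 5 of the 6 the groups overlapped. Oasl1, a family member without that enzyme activity that restrains translation of Irf7 mRNA in mice, was at 6.34, 2.89 and 10.6 FPKM in the control libraries and 17.9, 19.4 and 26.7 FPKM in the AVP libraries. The lowest AVP library stood above the highest control library, and control replicate 2 was the lowest of all. Group means were 6.61 ± 3.85 FPKM (SD, n = 3) in controls and 21.3 ± 4.7 FPKM (SD, n = 3) after AVP. The log2 fold change of 1.75 (adjusted p = 0.37, SE 0.54) did not pass, and its unadjusted interval ran from 0.50 to 2.99. Oasl1 (gene identifier 231655) lies on chromosome 5 from 114923143 to 114937911 of GRCm38.p6, and no core of the element was matched in its promoter.

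Oasl2, on the same chromosome next to Oasl1 and active as an enzyme, was the most abundant of the family, with 177, 92.2 and 133 FPKM in the control libraries and 164, 135 and 129 FPKM in the AVP libraries. Its AVP values lay within the control range, and it had a log2 fold change of 0.22 (adjusted p = 0.885, SE 0.31). Oas1a, an RNase L activating synthetase, was at 36.1, 30.3 and 16.2 FPKM in the control libraries and 44.97, 45.6 and 31.2 FPKM in the AVP libraries, with AVP replicate 3 inside the control range. Oas2 and Oas3, the larger synthetases, ranged from 31.9 to 44.98 FPKM and from 13.9 to 32.1 FPKM over the 6 libraries. Oas1g ranged from 8.53 to 18.5 FPKM. Transcripts of Oas1a and Oas1g are 97.5% identical over 1860 aligned bases, and 29.9% of the 151-base stretches of Oas1g occur in Oas1a, so the split between the pair is uncertain. Their sum was 49.0, 48.8 and 24.7 FPKM in controls and 62.3, 57.9 and 47.2 FPKM after AVP, and the groups overlapped.

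IFIT proteins bind foreign RNA and block its translation, and 3 of their 5 genes passed the filter, 2 with a fold change above 0 and 1 below. Ifit1 was at 36.3, 13.5 and 48.4 FPKM in the control libraries and 27.03, 21.8 and 110.0 FPKM in the AVP libraries. AVP replicate 3 was far above all other libraries while the other two AVP libraries lay within the control range, and the log2 fold change of 0.55 (adjusted p = 0.872, SE 0.69) became -0.14 without it. That library also had the highest T cell and NK cell marker sums (115 and 48.2 FPKM), the latter mostly Nkg7. The part of these cells in the result was not tested. Ifit3, which stabilises IFIT1 on RNA in human cells, ranged from 22.3 to 60.1 FPKM in controls and from 22.4 to 55.5 FPKM after AVP. Its near-copy Ifit3b ranged from 3.18 to 55.4 FPKM over the 6 libraries. The pair's transcripts are 98% identical over 1697 aligned bases, and the sum of both was 115, 33.5 and 72.9 FPKM in controls and 96.3, 43.3 and 46.4 FPKM after AVP. Ifit2, another RNA-binding member, stayed at or under 2.23 FPKM in every library. Ifit1bl1 was listed at 11.9 FPKM in control replicate 3 and at 1.71 FPKM or less elsewhere. Its annotated interval spans Ifit1 and Ifit3b.

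The ISG15 pathway attaches a ubiquitin-like protein to other proteins. Isg15, the modifier itself, was at 7.57, 7.57 and 9.74 FPKM in the control libraries and 12, 17.4 and 5.19 FPKM in the AVP libraries. The highest and the lowest value were both AVP libraries, replicates 2 and 3, and the log2 fold change of 0.38 (adjusted p = 0.892, SE 0.56) ranged from 0.08 to 0.83 when single libraries were left out. Usp18, the protease that removes ISG15 and also damps receptor signalling, was at 10.6, 29.5 and 11.2 FPKM in the control libraries and 5.01, 20.2 and 22.5 FPKM in the AVP libraries, with overlapping groups and a log2 fold change of -0.10 (adjusted p = 0.975, SE 0.65). Herc6, the mouse ISG15 ligase, ranged from 0.70 to 7.19 FPKM in controls and from 0.27 to 1.83 FPKM after AVP, with control replicate 2 among the AVP values.

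Other antiviral effectors gave 2 tested members above 0 and 2 below. Rsad2, the gene of viperin, an enzyme that makes a chain-terminating nucleotide, was at 90.8, 42.1 and 64.5 FPKM in the control libraries and 35.04, 84.6 and 73.3 FPKM in the AVP libraries. AVP replicate 1 was the lowest and control replicate 1 the highest, and the log2 fold change of 0.02 (adjusted p = 0.989, SE 0.41) was -0.06 on the deposited scale without library scaling. Its chromosomal neighbour Cmpk2, a mitochondrial nucleotide kinase, ranged from 3.91 to 9.86 FPKM over the 6 libraries. Isg20, an exonuclease of single-stranded RNA, was at 65.97, 33.1 and 105 FPKM in the control libraries and 71.9, 124 and 116 FPKM in the AVP libraries. AVP replicates 2 and 3 were above every control library and AVP replicate 1 was not, with a log2 fold change of 0.80 (adjusted p = 0.699, SE 0.43) that was 0.37 without control replicate 2. Bst2, the gene of tetherin, which holds budding virus at the cell surface, was listed at 0 in control replicate 1 and in AVP replicates 1 and 3, and at 12.8 to 39.2 FPKM in the other 3 libraries. Mx1, a dynamin-like antiviral GTPase gene that is inactivated in most laboratory mouse strains, was listed at 1.05, 0.261 and 0 FPKM in the control libraries and 0, 0 and 0 FPKM in the AVP libraries. Mx2 was listed at 0 in 5 libraries and at 0.49 FPKM in AVP replicate 1.

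GTPases of the guanylate-binding and immunity-related families attack the vacuoles of intracellular microbes, and 3 of 7 tested members had a fold change above 0 and 4 below. Irgm1, which regulates the other immunity-related GTPases and autophagy, was at 17.8, 30.4 and 28.2 FPKM in the control libraries and 69.5, 71.1 and 39.3 FPKM in the AVP libraries. Every AVP library was above every control library, AVP replicate 3 by the smallest margin. Group means were 25.5 ± 6.73 FPKM (SD, n = 3) in controls and 59.97 ± 17.9 FPKM (SD, n = 3) after AVP. The log2 fold change of 1.27 (adjusted p = 0.37, SE 0.40) had an interval of 0.36 to 2.18. Irgm1 (gene identifier 15944) lies on chromosome 11 from 48865245 to 48871420, just behind the promoter with the 2 matches printed above.

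The related genes Igtp and Ifi47 did not share that separation. Igtp, on the same chromosome, ranged from 5.91 to 24.8 FPKM in controls and from 6.74 to 19.4 FPKM after AVP. Ifi47 ranged from 15.6 to 33.4 FPKM and from 7.28 to 48.0 FPKM. Gbp3, a guanylate-binding protein gene singled out after its values were seen, was at 6.02, 28.4 and 6.41 FPKM in the control libraries and 0, 0 and 5.81 FPKM in the AVP libraries. Control replicate 2 was high, 2 AVP libraries were listed at 0, and AVP replicate 3 lay just below the remaining controls. After library scaling it lay between them, so the groups overlapped there, and without scaling Gbp3 makes 5 members lower in all AVP libraries in place of 4. It had an unadjusted p of 0.0308 by limma, with a log2 fold change of -2.56 (adjusted p = 0.502, SE 0.98) that ranged from -4.70 with a pseudocount of 0.1 to -1.29 with a pseudocount of 5. Gbp2 and Gbp7 ranged from 6.05 to 22.3 FPKM and from 5.04 to 19.3 FPKM over the 6 libraries, with overlapping groups. Gbp4 stayed at or under 7.06 FPKM and was listed at 0 in control replicate 2.

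In the PYHIN family, whose members bind DNA and include cytosolic DNA sensors, 5 of 6 tested members had a fold change below 0 and 1 above, with a median of -0.52. Their summed level was 154, 118 and 217 FPKM in controls and 97.9, 137 and 72.9 FPKM after AVP, so the groups overlapped. Ifi203, an interferon-inducible member of the family, was at 44.5, 29.3 and 26.8 FPKM in the control libraries and 8.57, 19.9 and 6.97 FPKM in the AVP libraries. All 3 AVP libraries were below all control libraries, with means of 33.5 ± 9.56 FPKM (SD, n = 3) in controls and 11.8 ± 7.05 FPKM (SD, n = 3) after AVP. The log2 fold change of -1.45 (adjusted p = 0.41, SE 0.48) had an interval of -2.55 to -0.35. Ifi203 (gene identifier 15950) lies on chromosome 1 from 173920400 to 173942866.

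Ifi209, in the same cluster on chromosome 1, was at 40.03, 42.4 and 41.8 FPKM in the control libraries and 26.3, 37.5 and 13.3 FPKM in the AVP libraries. Controls lay between 40.0 and 42.4 FPKM while the AVP values spread from 13.3 to 37.5 FPKM, and the log2 fold change of -0.70 (adjusted p = 0.738, SE 0.42) was -0.29 without AVP replicate 3. The monocyte marker sum was 469.7, 814 and 1085 FPKM in the control libraries and 837, 1148 and 247 FPKM in the AVP libraries. The part of monocytes in the result was not tested. Ifi204, the DNA sensor most like human IFI16, was at 38, 23.9 and 119.5 FPKM in the control libraries and 45.7, 35.4 and 36.7 FPKM in the AVP libraries. Control replicate 3 was far above all other libraries, and the log2 fold change of -0.21 (adjusted p = 0.938, SE 0.56) turned to 0.44 without it. Ifi213 ranged from 8.94 to 25.3 FPKM and Ifi211 from 3.62 to 19.4 FPKM over the 6 libraries. Ifi205 was listed at 0 in AVP replicates 1 and 3, at 8.93 FPKM in AVP replicate 2 and at 1.82 to 4.099 FPKM in controls.

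**Figure D4:**
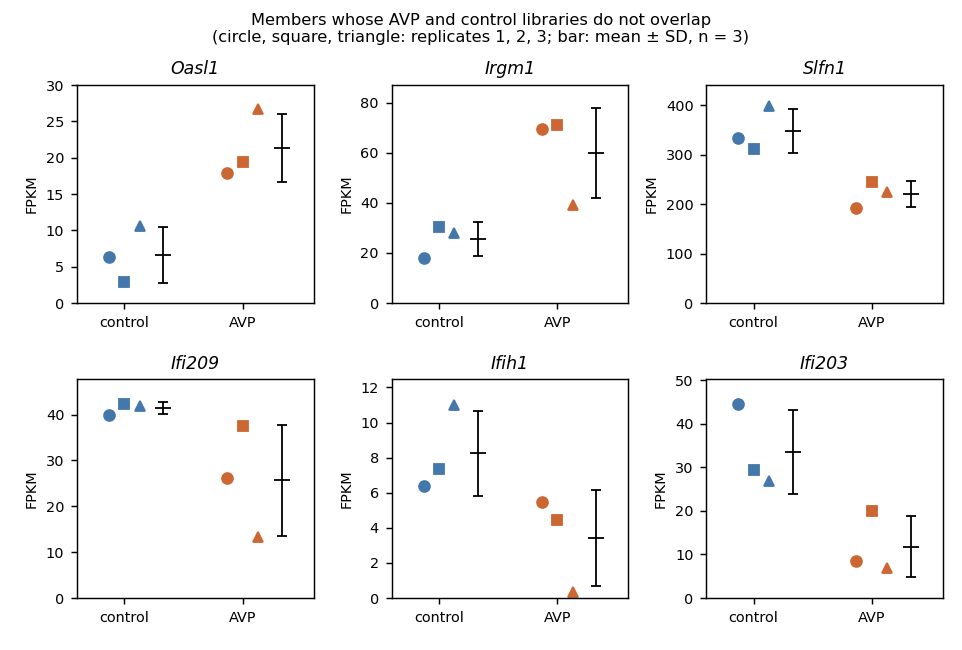
Deposited FPKM (vertical axes from 0) of the 6 members whose control and AVP libraries do not overlap, 1 panel a gene. Each point is a library, and bars give the mean ± SD (n = 3). Oasl1 and Irgm1 are higher in the 3 AVP libraries, and Ifi203, Slfn1, Ifi209 and Ifih1 are lower, with 1 low AVP library (replicate 3) in Ifih1 and Ifi209.

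Schlafen proteins restrain growth and protein synthesis in blood cells, and 2 of the 4 members had a fold change above 0 and 2 below. The 2 below were the most abundant. Slfn1, first known for quiescence of lymphocytes, was at 334, 312 and 399 FPKM in the control libraries and 193, 246 and 225 FPKM in the AVP libraries. All 3 AVP libraries were below all control libraries, with means of 348 ± 45.4 FPKM (SD, n = 3) in controls and 221 ± 26.8 FPKM (SD, n = 3) after AVP. It had the smallest SE of the members whose groups did not overlap, with a log2 fold change of -0.57 (adjusted p = 0.466, SE 0.20) and an interval of -1.04 to -0.10. Slfn1 (gene identifier 20555) lies on chromosome 11 from 83116820 to 83122670.

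Slfn4, a Schlafen gene of myeloid cells on the same stretch of chromosome 11, was at 716, 409 and 651 FPKM in the control libraries and 438, 309 and 394 FPKM in the AVP libraries. Only AVP replicate 1 was above the lowest control library, control replicate 2, and the gene had a log2 fold change of -0.52 (adjusted p = 0.702, SE 0.28) that was -0.33 without AVP replicate 2. Slfn5 and Slfn8 were lower, at 9.16 to 31.6 FPKM and 6.98 to 18.8 FPKM over the 6 libraries, and their groups overlapped. The summed level of the 4 genes was 1093, 737 and 1087 FPKM in controls and 668, 596 and 643 FPKM after AVP, and Slfn1 and Slfn4 make up most of it.

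Of the other interferon-induced genes, 3 of 6 tested members had a fold change above 0 and 3 below. Ifi27l2a had a log2 fold change of -0.07 (adjusted p = 0.935, SE 0.17) and its 95% interval -0.46 to 0.33 is the narrowest of the genes described here with a test. Rtp4, a chaperone of cell surface receptors, ranged from 228 to 413 FPKM in controls and from 213 to 454 FPKM after AVP. Trim30a, which restrains Toll-like receptor signalling, ranged from 86.6 to 103 FPKM and from 76.4 to 139 FPKM. Xaf1, an antagonist of the apoptosis inhibitor XIAP, ranged from 10.3 to 27.6 FPKM over the 6 libraries, Ifi35 from 30.6 to 52.5 FPKM, and Parp14, an ADP-ribosyltransferase gene, from 2.22 to 11.6 FPKM. Phf11d was listed at 0 in 3 libraries and reached 4.51 FPKM in control replicate 2. Ifi44 was listed above 0 in AVP replicate 1 alone, at 0.0471 FPKM, less than 1 fragment on 1 kb is worth.

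Cxcl10, the chemokine gene whose product draws T cells and NK cells through CXCR3, was listed at 0, 0 and 0 FPKM in the control libraries and 0, 3.398 and 17.3 FPKM in the AVP libraries. It was thus seen in 2 of the 3 AVP libraries, too few for the filter, and no fold is given against controls at 0. The 6 dendritic cell markers summed to 11.2 and 14.2 FPKM in those same AVP libraries and to 3.55 FPKM or less elsewhere. Xcr1 and Cd209a were listed at 0 in all 6 libraries. Batf3 alone was above 0 in both of those AVP libraries, at 6.15 and 8.03 FPKM. Flt3 (5.05 FPKM) made up the rest in AVP replicate 2, and Clec9a (6.12 FPKM) in AVP replicate 3. T cell and NK cell marker sums were highest in AVP replicate 3, the NK cell sum being mostly Nkg7. The part of these cells in the result was not tested.

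The members varied from library to library within each group. Control replicate 2 was the lowest of the 6 libraries for 15 of the 47 tested members (31.9%), where it was lowest for 19.7% of all genes. Relative to each gene's mean over the libraries, its median member stood at -0.30 in log2 units, against 0.05 for all genes. Control replicate 3 stood at 0.27, with 38 of 47 members above their mean, against 0.06 for all genes. The medians of AVP replicates 1, 2 and 3 were 0.08, 0.20 and -0.05, inside the span of the control libraries. Control replicate 2 was lowest for Irf9, Isg20, Oasl1, Oasl2 and Ifit1, and it was highest for Zbp1, Irf1, Usp18 and Gbp3. Without control replicate 3, 8 members were higher in all AVP libraries, and without AVP replicate 3 there were 7, against 2 with all libraries, groups of fewer libraries being easier to separate. Counts were 4, 5 and 4 without control replicate 1, AVP replicate 1 and AVP replicate 2. The share of all genes was not counted with a library left out, so these numbers cannot be set against it.

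**Figure D5:**
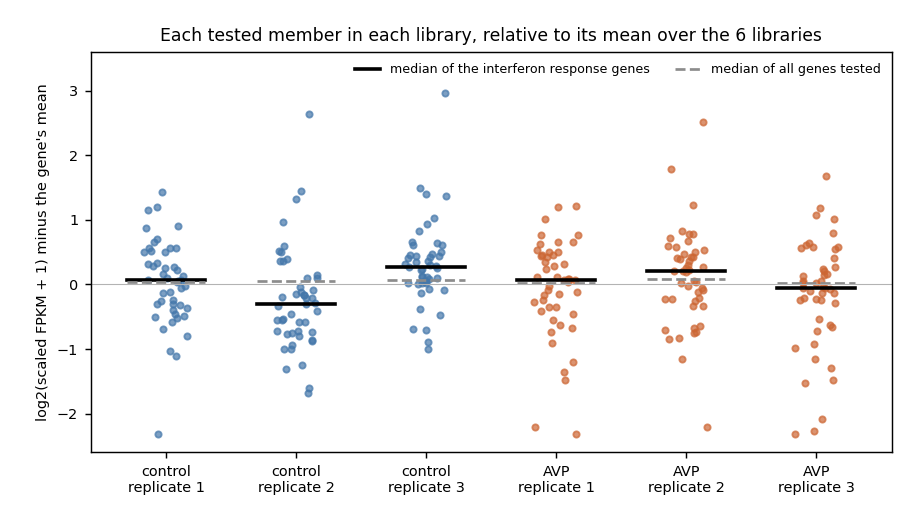
Each tested member in each library as log2(scaled FPKM + 1) minus the gene's mean over the 6 libraries (vertical axis), with the median of the members (black bar) and of all genes tested (dashed bar). The median is lowest in control replicate 2 (-0.30) and highest in control replicate 3 (0.27), and the 3 AVP libraries lie between them.

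Fold changes were set beside the element in the promoters, as a description. The 24 tested members with a match had a median log2 fold change of 0.05, with 15 above 0. The 14 without one had a median of 0.14, with 8 above 0. Tested members for which no promoter was given are in neither group. Of the 6 members whose groups did not overlap, Irgm1, Ifi203 and Ifih1 had a match, the last of these beyond the start, and Oasl1, Slfn1 and Ifi209 had none.

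Other genes of the interferon pathway were read beside the set. All 109 genes listed were found, 66 were tested, and 0 reached an adjusted p of 0.05 by limma. At an unadjusted p of 0.05, 0 were higher after AVP and 3 (4.55%) were lower, Jak1, Trim34a and Trim30d, against 4.72% and 3.75% of all genes. The 19 interferon ligand genes were listed at 0 in all 6 libraries. Receptors and kinases had 8 of 9 tested genes with a fold change below 0 and 1 above, with a median of -0.24. Among upstream sensors and adaptors 3 of 6 tested were below 0, among other transcription factors and inhibitors 6 of 8, and among further induced genes 23 of 43.

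Ifnar1, a receptor chain, was at 11.3, 5.58 and 6.7 FPKM in the control libraries and 2.81, 11.4 and 9.97 FPKM in the AVP libraries, with overlapping groups and a log2 fold change of -0.02 (adjusted p = 0.993, SE 0.63) that was 0.01 with a pseudocount of 5. Its partner chain Ifnar2 was at 17.9, 43.8 and 68.6 FPKM in the control libraries and 30.6, 36.8 and 24.4 FPKM in the AVP libraries. The groups of Ifnar2 overlapped, with control replicate 1 the lowest and control replicate 3 the highest, and a log2 fold change of -0.24 (adjusted p = 0.928, SE 0.51). Jak1, the kinase bound to IFNAR2, was at 101, 72.95 and 73.6 FPKM in the control libraries and 37.4, 37.7 and 53.9 FPKM in the AVP libraries. All 3 AVP libraries were below all control libraries, with a log2 fold change of -0.84 (adjusted p = 0.471, SE 0.30).

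Of the pathway genes whose groups did not overlap, 3 were higher after AVP (Tyk2, Eif2ak2 and Nlrc5; 4.55% of those tested against 7.49% of all genes) and 5 were lower (7.58% against 6.49%). Trim34a, an interferon-induced ubiquitin ligase gene of the TRIM family, was at 49.3, 67.2 and 34.8 FPKM in the control libraries and 8.54, 18.4 and 18.7 FPKM in the AVP libraries, with a log2 fold change of -1.61 (adjusted p = 0.303, SE 0.43). Trim30d, a neighbour of Trim30a in the same family, was at 65.6, 84.1 and 78.98 FPKM in the control libraries and 32.3, 47.5 and 45.2 FPKM in the AVP libraries, with a log2 fold change of -0.78 (adjusted p = 0.475, SE 0.29). Neither passed, though in both genes the lowest control library was above the highest AVP library. Pml, which builds nuclear bodies with antiviral functions, was at 6.58, 13.4 and 2.25 FPKM in the control libraries and 1.33, 1.49 and 1.62 FPKM in the AVP libraries, with a log2 fold change of -1.46 (adjusted p = 0.645, SE 0.71) that was -0.94 without control replicate 2 and -0.81 with a pseudocount of 5. Slfn2, the Schlafen gene near Slfn1, was at 576, 554 and 714 FPKM in the control libraries and 427, 486 and 467 FPKM in the AVP libraries. Its groups were apart in the same direction as those of Slfn1, with a log2 fold change of -0.33 (adjusted p = 0.733, SE 0.19). Nlrc5, the activator of MHC class I genes, was low in all libraries, with 1.304, 0.3802 and 0.527 FPKM in the control libraries and 3.58, 3.08 and 1.64 FPKM in the AVP libraries, higher in the AVP group, and a log2 fold change of 1.17 (adjusted p = 0.631, SE 0.55) that was 0.46 with a pseudocount of 5 and 1.94 with a pseudocount of 0.1.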

How the data were processed

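TruSeq libraries of neutrophil RNA were read from both ends, per the labels' protocols. Per the submitters' processing notes, the authors used the mm10 build, HISAT2 2.1, cutadapt 1.16.5, bcl2fastq 2.19, DESeq2 2.11.40.6 and featureCounts 1.6.4. The annotation release, each tool's role and the use of strand in counting were not given in the sources used here. FPKM per gene is what the authors deposited, a unit inferred from the values, and it is printed unscaled. An exact 0 can be a failed estimate, so such genes are said to be listed at 0. Depth was estimated from the value of 1 fragment in short pseudogenes.

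Of 47561 features, 44705 matched a RefSeq table of GRCm38.p6 by name, the source of coordinates and promoters. The filter of 1 FPKM in 3 or more libraries left 8523 genes. A trimmed mean of log ratios scaled the libraries (without the outer 30% of ratios and 5% of levels on each side), and values were tested as log2(FPKM + 1) with limma 3.58.1 in R 4.3.3, with an intensity trend, Benjamini-Hochberg adjustment over all genes, a threshold of 0.05 and no replicate term. Replicate numbers share no animal or day in the labels, and same-numbered libraries did not deviate together. Groups were said not to overlap from scaled FPKM. A fold change and test are given for members whose groups do not overlap, the most abundant member of each role, Irf7, Irf9, Stat2, Isg15, Ifit1, Rsad2, Mx1 and Cxcl10 where tested, and, of the pathway genes, Ifnar1, Ifnar2 and the 6 with the smallest p whose groups do not overlap. A further gene of that rule is not reported here. The procedure was tested on simulated data. The members, gene lists and tests were chosen with earlier results of these data known. Python 3.11.15 was used with scipy 1.17.1, numpy 2.4.6, pandas 2.3.3 and matplotlib 3.10.9, and transcripts of near-identical genes were aligned with Biopython 1.88. Alternatives were other scalings, pseudocounts and filters, a replicate block, no intensity trend and leaving out each library.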

Additional observations from a re-analysis of the deposited data

Results flagged for a closer look

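Signal of at least 1 FPKM was seen after AVP in 2 genes that did not pass the filter and were listed at 0 in all 3 control libraries. Others at 0 in controls (Mx2, Ifi44, Slfn9 and Gbp10) stayed under that level. Cxcl10, the CXCR3 ligand gene, was listed at 3.40 FPKM in AVP replicate 2, at 17.3 FPKM in AVP replicate 3 and at 0 in AVP replicate 1. Gbp8, a guanylate-binding protein gene of the pathway list, was listed at 2.82 FPKM in AVP replicate 3. In that library T cell markers summed to 115 FPKM and NK cell markers to 48.2 FPKM, the latter mostly Nkg7. Both sums were the highest of the 6 libraries, and the part of these cells in the values was not tested.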

How the results depend on the processing

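Under all 14 alternatives the number of members past an adjusted p of 0.05 by limma was 0. Over all genes it was 3 with a pseudocount of 5, 11 with a filter of 10 FPKM, 1 without the intensity trend, 4 without control replicate 3 and 0 otherwise. With the replicate number as a block, 0 members passed, with a smallest adjusted p of 0.523, and at an unadjusted p of 0.05 there were 2 higher and 2 lower. Same-numbered libraries correlated at 0.02, -0.01 and -0.04 in their deviations, so the numbers were not taken as pairs. Leaving out each library in turn, members higher in all AVP libraries numbered 2 to 8, a count not taken over all genes there. In the same fits, members lower at an unadjusted p of 0.05 by limma numbered 1 to 4 (1 without AVP replicate 1). Pathway genes at that p numbered 3 to 7 (7 without AVP replicate 3). The median log2 fold change of the members ran from -0.04 to 0.13 when single libraries were left out and from -0.06 to 0.05 across the other alternatives. Without scaling the median of all genes shifted by -0.07, and 21 members were above 0 and 26 below. Of 30 genes with a fold change, 18 kept its sign under each alternative in which they were tested. Among them are Oasl1, Irgm1, Ifi203, Slfn1, Ifi209 and Ifih1, and the pathway genes Jak1, Trim34a, Trim30d, Pml, Slfn2 and Nlrc5. Those genes were named because their groups do not overlap, which all but fixes the sign in advance, so their kept sign is no support. Of these 18, Ifih1, Isg15, Gbp3, Nlrc5 and Pml did not pass the filter of 10 FPKM and have no value there, nor do Ifnar1 and Stat2 among the others. Rsad2 turned to -0.060 without scaling and Ifnar1 to 0.012 with a pseudocount of 5. Leaving out single libraries turned the sign of 12 genes, with ranges of -0.24 to 0.36 for Irf1, -0.14 to 1.04 for Ifit1, -0.012 to 0.44 for Oasl2, -0.44 to 0.49 for Usp18, -0.68 to 0.44 for Ifi204, -0.16 to 0.034 for Ifi27l2a, -0.32 to 0.20 for Irf7, -0.0018 to 0.50 for Irf9, -0.065 to 0.64 for Stat2, -0.25 to 0.35 for Rsad2, -0.29 to 0.47 for Ifnar1 and -0.76 to 0.18 for Ifnar2. The cause was not tested. The within-group SD of the median member was 0.58 log2 units with 3 libraries a group, which limits the differences that can be detected.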
